A study of Mus musculus with 6 samples.

Results

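Liver cells use glucose and fructose through a particular set of isoforms, enzymes and carriers of the same reaction that are encoded by different genes. The 8 genes described here are Slc2a1, Slc2a2, Hk1, Khk, Pfkfb1, Pklr, Ldha and Ldhb, which include liver forms and widely expressed forms of sugar uptake, sugar phosphorylation, the control of glycolysis, its last step and lactate handling. They were chosen by symbol, 8 of 32061 genes listed, and all 8 had enough reads to be among the 12949 genes tested.

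RNA was sequenced from hepatocytes that had been freed from mouse livers by collagenase perfusion and purified on a density gradient. In the 3 senescent samples the mice were AhCre+Mdm2fl/fl, and in the 3 healthy samples they were AhCre-, with an Mdm2 genotype not given in the sources used here. All mice were 10 to 12 weeks old, and both groups were given the Cre inducer β-naphthoflavone, an activator of the aryl hydrocarbon receptor, by intraperitoneal injection in corn oil at 20 mg/kg for 48 h. AhCre is driven by a promoter that this receptor activates, which is not restricted to the liver, and Mdm2 encodes the ubiquitin ligase that restrains p53. The labels do not say that each sample is a separate mouse, so each p-value reflects the spread among these samples, which may be technical. Presence of Cre and loss of Mdm2 cannot be told apart.

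Libraries held 29992707 to 32210591 counts in the senescent and 28799392 to 33267299 counts in the healthy group. Values are CPM, counts scaled to a common library size with TMM factors, and log2 fold changes are senescent over healthy with their standard error. Mdm2 had 465, 463 and 501 CPM in senescent libraries, against 19.0, 22.7 and 21.99 CPM in healthy ones, and the p53 target Cdkn1a averaged 717 ± 60.0 CPM in senescent and 35.6 ± 16.98 CPM in healthy libraries (SD, n = 3 each). The Mdm2 count covers the whole gene and is no check of the deleted part. The 8 hepatocyte markers examined were all tested and summed to 72265 to 87053 CPM in senescent, against 121868 to 136586 CPM in healthy libraries. Most of the sum was Alb, at a mean of 51520 CPM in senescent and 90316 CPM in healthy libraries. Of the 8 markers 5 were called lower. Apob (log2 fold change 0.27 ± 0.15), Cps1 (0.14 ± 0.26) and Fgb (-0.38 ± 0.30) were not called. Markers of other cells were examined too. For 12 Kupffer cell and macrophage markers the range was 242 to 488 CPM in senescent and 98.2 to 267 CPM in healthy libraries, and for 10 stellate cell markers 27.5 to 42.0 CPM in senescent and 11.3 to 18.4 CPM in healthy libraries. The macrophage ranges overlapped, with 2 of 12 genes called higher, and the stellate ranges did not, with 5 of 9 tested genes called higher. For 6 cholangiocyte markers the sums were 11.4 to 16.3 CPM in senescent and 4.70 to 8.12 CPM in healthy libraries. For 7 neutrophil and lymphocyte markers they were 6.06 to 9.87 CPM in senescent and 1.80 to 4.82 CPM in healthy libraries. In each of these lists 2 genes were called higher. The part of such cells in the values of the 8 genes was not tested. Across all genes 41.1% were called at an adjusted p under 0.05, 20.4% higher and 20.7% lower in senescent cells, and the groups did not overlap for 54.0%.

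Sugar enters a hepatocyte mainly through GLUT2, is phosphorylated, by ketohexokinase if it is fructose, and is broken down to pyruvate. Most other tissues use GLUT1, hexokinases of high affinity and the M form of pyruvate kinase in these steps. Lactate dehydrogenase, a tetramer of A and B subunits, interconverts pyruvate and lactate.

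Of the 8 genes, 2 were higher (Slc2a1 and Ldhb), 4 were lower (Slc2a2, Khk, Pfkfb1 and Pklr) and 2 were not called (Hk1 and Ldha). Of all tested genes 20.4% were called higher and 20.7% lower, the background for this and the later counts. The groups did not overlap for 7 of the 8, against 54.0% of all tested genes. The largest changes were a 6.22-fold lower level of Pklr, a 5.54-fold higher level of Ldhb and a 3.77-fold lower level of Khk in senescent cells. The calls of Slc2a1, Khk, Pklr and Ldhb held in each of the other settings tried, while those of Slc2a2 and Pfkfb1 did not. In bulk RNA, fewer cells of a type and less RNA per cell cannot be told apart.

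**Figure D1:**
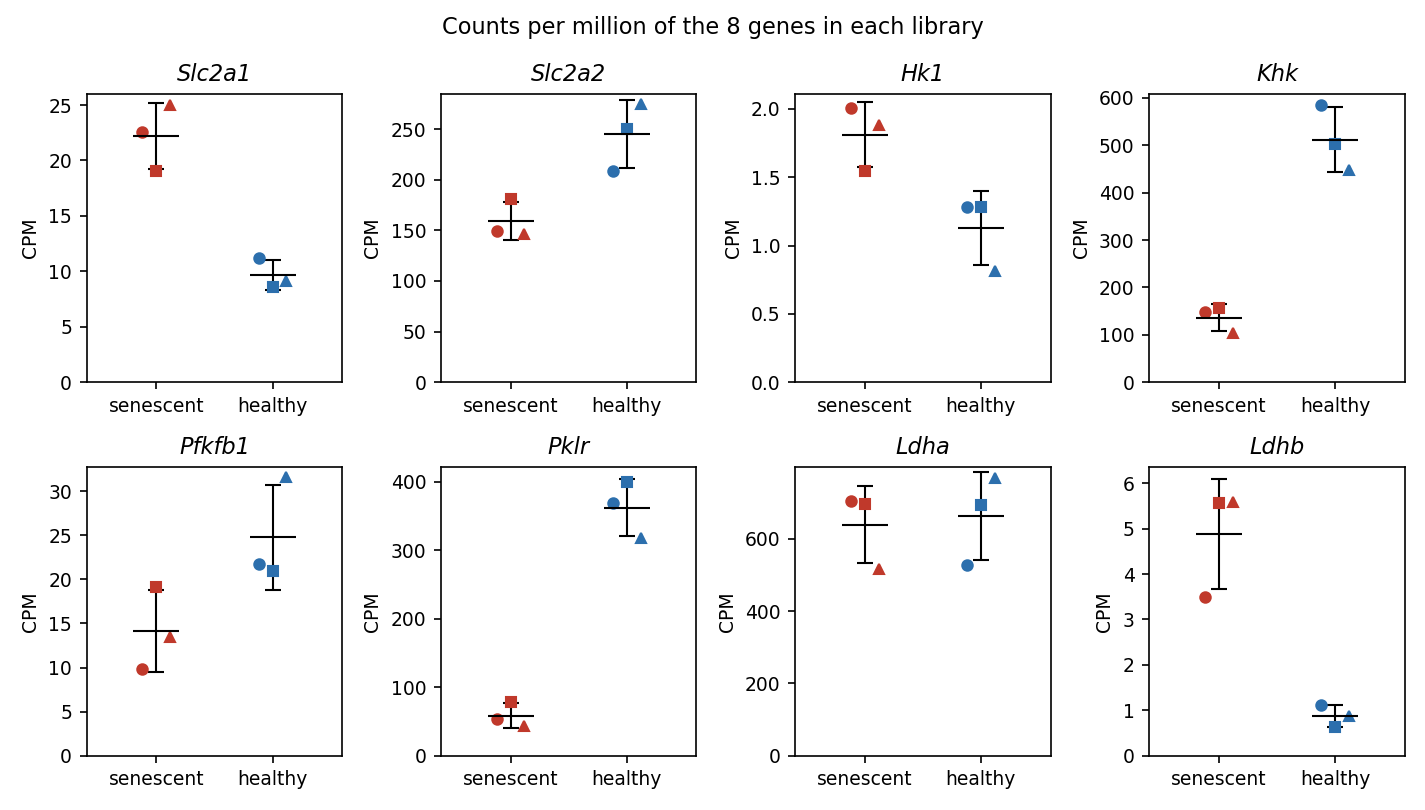
CPM (vertical axis, linear from 0) of each of the 8 genes in the senescent (red, left) and healthy (blue, right) libraries, with circle, square and triangle for replicates 1, 2 and 3 and a bar with whiskers for mean ± SD (n = 3). The groups are apart for 7 genes and overlap for Ldha, and Khk and Pklr show the widest gaps among the genes that were lower in senescent cells.

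For sugar uptake, the RNA of its liver and its widely expressed carrier was measured, not uptake itself. Slc2a2 (ENSMUSG00000027690, chr3:28697903-28731359, GRCm38) encodes GLUT2, the low-affinity carrier through which hepatocytes exchange glucose with the blood. It had 149.7, 181 and 147 CPM in senescent libraries, against 209, 250.1 and 275 CPM in healthy libraries. Every senescent library lay below every healthy one, with the highest senescent and the lowest healthy value closest to each other. Its log2 fold change was -0.62 ± 0.15 (edgeR adjusted p = 0.010). The call was lost without senescent replicate 3 (-0.53, adjusted p = 0.065) and when scaled by total library size alone (-0.32, adjusted p = 0.092).

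Slc2a1 (ENSMUSG00000028645, chr4:119108711-119137983) encodes GLUT1, known as the carrier of human red cells, of endothelia and of most cultured cells. It had 22.6, 19.1 and 25.0 CPM in senescent libraries, against 11.2, 8.60 and 9.12 CPM in healthy libraries. The lowest senescent library was well above the highest healthy one. The level was 2.30-fold higher in senescent cells (log2 fold change 1.20 ± 0.15, edgeR adjusted p = 6.0e-04). The 7 red cell markers, 5 of them tested, summed to 11.54 to 18.7 CPM in senescent and 11.3 to 12.1 CPM in healthy libraries. Most of that sum was Alas2, at a mean of 10.3 CPM in senescent and 9.62 CPM in healthy libraries. The globin genes among them were 1.96-fold (Hba-a2) to 2.47-fold (Hba-a1) higher in senescent libraries. Their groups overlapped, and none of the 5 was called. For sinusoidal endothelial markers the sums were 123 to 159.9 CPM in senescent and 104 to 131 CPM in healthy libraries, with 2 of 9 called higher. By their means the red cell sum was 1.27-fold and the endothelial sum 1.21-fold higher in senescent libraries. The other sums were 2.44-fold (stellate cell), 2.43-fold (neutrophil and lymphocyte), 2.18-fold (cholangiocyte) and 1.88-fold (macrophage, with overlapping ranges) higher. The part of any of these cells in the Slc2a1 value was not tested.

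The RefSeq promoters for GRCm38.p6 covered all 8 genes. RefSeq starts can differ from the GENCODE gene bounds given here, and the Slc2a1, Khk, Pklr and Ldha windows shown end inside those bounds. The 250 bases before the annotated start of Slc2a1 (chr4:119108495-119108744, plus strand) are shown because this promoter belongs to the carrier that was higher, and capitals mark ACGTG, the core of the hypoxia response element, 36 bases before the start.
Slc2a1: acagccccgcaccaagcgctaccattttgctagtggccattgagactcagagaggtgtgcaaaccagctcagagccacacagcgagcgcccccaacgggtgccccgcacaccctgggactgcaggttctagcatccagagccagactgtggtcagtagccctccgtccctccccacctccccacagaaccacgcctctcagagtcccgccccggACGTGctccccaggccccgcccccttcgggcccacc
On both strands, 16.6% of 32817 promoter windows of this length held ACGTG, which is also part of the E-box CACGTG. Slc2a1 also held 2 copies of the GC box GGGCGG, found in 32.7% of windows. The Slc2a2 window held none of the 5 motifs searched, and it had 2 CG dinucleotides against 13 in that of Slc2a1 and a median of 6 over all windows. GGGCGG was also found in a Pfkfb1 window and in those of Khk and Ldha, and TATAAA in another Pfkfb1 window. The remaining motifs are spelled out with the Khk and Pklr promoters.

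Other carriers of the same family were mostly too low to test. Of 9 further SLC2 genes, 6 were not tested, 1 was called higher (background 20.4%) and 1 lower (background 20.7%). Slc2a9, a urate carrier, had 104, 131 and 112 CPM in senescent libraries, against 41.5, 44.2 and 44.5 CPM in healthy ones (log2 fold change 1.42 ± 0.12, edgeR adjusted p = 7.0e-05). The fructose carrier Slc2a5 was at 0.730 ± 0.337 CPM in senescent and 2.67 ± 1.13 CPM in healthy libraries (-1.86 ± 0.42, edgeR adjusted p = 0.0090), from 17 to 40 counts per senescent and 48 to 116 counts per healthy library.

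For glucose phosphorylation, the RNA of the hexokinase genes was measured. Hk1 (ENSMUSG00000037012, chr10:62268855-62379908, minus strand) encodes a mitochondrial-bound hexokinase of most tissues. It had 2.01, 1.54 and 1.88 CPM in senescent libraries, against 1.28, 1.28 and 0.813 CPM in healthy libraries. These CPM stand for 53 to 72 counts per senescent and 23 to 38 counts per healthy library. The groups did not overlap, but the log2 fold change of 0.69 ± 0.28 was not called (edgeR adjusted p = 0.085). It passed with total library size (1.00, adjusted p = 0.022). By their means the macrophage sum above was 1.88-fold and the stellate cell sum 2.44-fold higher in senescent libraries, though the macrophage ranges overlapped. The part of these cells in the Hk1 level was not tested.

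Gckr, of the same group, had 158 ± 9.91 CPM in senescent and 248 ± 12.1 CPM in healthy libraries (-0.66 ± 0.11, edgeR adjusted p = 0.0024). Hk3, a hexokinase known from myeloid cells, averaged 4.17 ± 1.47 CPM in senescent and 1.66 ± 0.822 CPM in healthy libraries (1.33 ± 0.41, edgeR adjusted p = 0.033). Its groups overlapped, and the call was lost when senescent replicate 1 (0.077) or 3 (0.10), or healthy replicate 2 (0.088) or 3 (0.066), was left out. Of the 6 genes in this group besides Hk1, 5 were tested. Of these, 1 was higher (background 20.4%), 2 were lower (background 20.7%) and 2 were not called.

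Fructose breakdown in liver starts with ketohexokinase, and triokinase acts further on. Khk (ENSMUSG00000029162, chr5:30921431-30931248) encodes ketohexokinase, which phosphorylates fructose. It had 148, 156 and 103 CPM in senescent libraries, against 585, 502 and 448 CPM in healthy libraries. Even the lowest healthy library held well over the highest senescent value. The log2 fold change was -1.92 ± 0.19 (edgeR adjusted p = 1.5e-04), and over the other settings it ran from -2.01 to -1.61. Gene counts do not separate the A and C splice forms of Khk.

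The gene of a later step moved the other way. Tkfc, whose triokinase phosphorylates the glyceraldehyde released from fructose, had 824, 1067 and 846 CPM in senescent libraries, against 463, 426 and 394 CPM in healthy ones. It was 2.13-fold higher in senescent cells (1.09 ± 0.15, edgeR adjusted p = 8.9e-04), opposite to Khk. The ratio of Khk to Tkfc, per kb of exon and within a library, was 0.461, 0.375 and 0.314 in senescent, against 3.25, 3.03 and 2.92 in healthy libraries, a pair chosen after its values were seen. Khk was thus the more abundant per kb in all healthy libraries and Tkfc in all senescent ones.

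Sord, which makes fructose from sorbitol, was at 962 ± 78.9 CPM in senescent and 1351 ± 20.4 CPM in healthy libraries (-0.49 ± 0.13, edgeR adjusted p = 0.018). Glyctk, the glycerate kinase, was at 177 ± 17.5 CPM in senescent and 255 ± 31.8 CPM in healthy libraries (-0.53 ± 0.14, edgeR adjusted p = 0.016). Both calls were lost without senescent replicate 3 (0.094 for Sord, 0.092 for Glyctk) and with total library size (0.25 for Sord, 0.20 for Glyctk). Sord was also lost without senescent replicate 2 (0.077) and Glyctk without senescent replicate 1 (0.064). Of the 4 genes beside Khk in this group, 1 was higher (background 20.4%), 2 were lower (background 20.7%) and 1 was not called.

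The Khk promoter window (chr5:30921309-30921558, plus strand) is shown because Khk and Pklr were the members with the largest decreases. Capitals mark an E-box, CACGTG, 71 bases before the RefSeq start.
Khk: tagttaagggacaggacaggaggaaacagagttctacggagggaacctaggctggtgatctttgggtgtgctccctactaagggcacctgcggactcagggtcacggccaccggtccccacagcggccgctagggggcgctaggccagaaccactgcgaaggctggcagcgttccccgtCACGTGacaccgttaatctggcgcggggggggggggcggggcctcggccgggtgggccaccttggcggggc
CACGTG was in 6.02% of all windows.

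At the phosphofructokinase step, Pfkfb1 (ENSMUSG00000025271, chrX:150588229-150643878) encodes the liver form of the bifunctional enzyme that makes and removes fructose 2,6-bisphosphate, the activator of phosphofructokinase. It had 9.88, 19.1 and 13.4 CPM in senescent libraries, against 21.7, 20.9 and 31.6 CPM in healthy libraries. The groups did not overlap, though the highest senescent library came close to the lowest healthy ones. The log2 fold change was -0.81 ± 0.25 (edgeR adjusted p = 0.033). The call was lost without senescent replicate 1 (0.093) or 3 (0.12), without healthy replicate 3 (0.090) and with total library size (0.11). Its exons share 123 bases with Apex2 on the opposite strand, and Apex2 held 1022 counts over the 6 libraries. The library kit keeps strand, but the strand setting of the counting is not stated in the labels.

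Pfkfb3, the inducible isoform with the strongest kinase activity, had 6.22, 19.9 and 30.2 CPM in senescent libraries, against 1.25, 5.02 and 4.81 CPM in healthy libraries. The senescent libraries spread widely but stayed above the healthy ones. It was 5.11-fold higher (2.35 ± 0.62, edgeR adjusted p = 0.017), a call lost without senescent replicate 3 (1.85, adjusted p = 0.067). Tigar, a p53 target in human cells whose product removes fructose 2,6-bisphosphate, was at 12.2 ± 2.20 CPM in senescent and 7.97 ± 1.65 CPM in healthy libraries (0.61 ± 0.19, edgeR adjusted p = 0.035). Its groups overlapped, and leaving out senescent replicate 2 (0.10) or 3 (0.092), healthy replicate 1 (0.091) or 2 (0.12), or a trend on exonic length (0.091) ended the call.

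Of the 3 phosphofructokinase genes 2 were lower. Pfkm, the muscle form, was at 10.6 ± 2.33 CPM in senescent and 17.9 ± 3.26 CPM in healthy libraries (-0.76 ± 0.20, edgeR adjusted p = 0.015). Pfkl, the liver form, was at 33.9 ± 2.56 CPM in senescent and 47.0 ± 7.28 CPM in healthy libraries (-0.47 ± 0.14, edgeR adjusted p = 0.026). The platelet form Pfkp, named after its values were seen, was at 1.62 ± 0.186 CPM in senescent and 0.748 ± 0.435 CPM in healthy libraries and was not called (1.10 ± 0.44, edgeR adjusted p = 0.076). Pfkp passed in DESeq2 (0.048), in limma-voom (0.049), with total library size (0.028) and without healthy replicate 1 (0.032). With total library size Pfkm had adjusted p = 0.089 and Pfkl 0.37, and single libraries left out gave up to 0.078 for Pfkm (without senescent replicate 2 or 3) and up to 0.12 for Pfkl (lost when senescent replicate 2 or 3, or healthy replicate 1 or 2, was left out). Of the 8 genes beside Pfkfb1 here, 3 were higher (background 20.4%), 2 were lower (background 20.7%) and 3 were not called.

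Pklr (ENSMUSG00000041237, chr3:89136142-89146784) encodes the liver and red cell pyruvate kinase, which makes pyruvate in the last step of glycolysis. The gene has 2 annotated starts, and the window before the downstream start, that of the liver form (chr3:89136373-89136622, plus strand), is shown because Pklr had the largest decrease. Capitals mark the carbohydrate response element, the motif known to be bound by ChREBP, which was searched as CACGNG and CNCGTG with 5 bases of any kind between them, 170 bases before the start.
Pklr: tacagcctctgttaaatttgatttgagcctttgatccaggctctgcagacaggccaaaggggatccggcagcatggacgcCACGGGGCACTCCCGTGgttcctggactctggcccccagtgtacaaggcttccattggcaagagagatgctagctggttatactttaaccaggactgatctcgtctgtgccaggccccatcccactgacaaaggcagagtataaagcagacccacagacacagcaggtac
This motif, the same on both strands, was in 13 of 32817 windows, or 0.0396%. The window also held TATAAA 31 bases before the start, as did 12.4% of windows.

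Pklr had 53.8, 78.0 and 42.8 CPM in senescent libraries, against 369, 399 and 317 CPM in healthy libraries. All senescent values were far below all healthy ones. The log2 fold change was -2.64 ± 0.23 (edgeR adjusted p = 7.0e-05), and it ran from -2.86 to -2.34 over the other settings. Its exons share 711 bases with Hcn3 on the opposite strand, which held 37 counts in all 6 libraries together.

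Pkm, whose products include the M2 form of dividing cells, had 12.7, 7.26 and 13.8 CPM in senescent libraries, against 7.98, 6.27 and 3.46 CPM in healthy libraries. Its groups overlapped and it was not called (0.93 ± 0.33, edgeR adjusted p = 0.051). It passed in DESeq2 (0.017), with no filter (0.028), with total library size (0.016) and without senescent replicate 2 (0.018) or healthy replicate 1 (0.029). Gene counts do not separate M1 from M2, and macrophages express the gene.

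Among the other 13 genes of lower glycolysis 11 were tested, 5 were lower (background 20.7%) and 6, Pkm and Aldoa among them, were not called. The brain-type aldolase gene Aldoc had 2.59, 2.10 and 2.23 CPM in senescent libraries, against 14.2, 13.9 and 10.9 CPM in healthy ones (-2.49 ± 0.17, edgeR adjusted p = 2.4e-05). Aldoa, the aldolase of muscle and most cells, was at 88.2 ± 6.12 CPM in senescent and 74.2 ± 5.59 CPM in healthy libraries, and was not called (0.25 ± 0.11, edgeR adjusted p = 0.11). It passed with total library size (0.56, adjusted p = 0.0063).

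The A and B subunit genes of lactate dehydrogenase differed from each other. Ldha (ENSMUSG00000063229, chr7:46841475-46855627) encodes the A subunit, the main one of liver and muscle. It had 705, 697 and 516 CPM in senescent libraries, against 529, 693 and 768 CPM in healthy libraries. The groups overlapped over most of their ranges. Its log2 fold change was -0.05 ± 0.19 (edgeR adjusted p = 0.84), and its sign turned with total library size. Ldha has processed copies in the mouse genome that can share its reads.

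The Ldha window before the upstream RefSeq start (chr7:46845554-46845803, plus strand) is shown beside those of the members that moved. Capitals mark ACGTG on either strand, with 4 of the 5 matches inside the 2 E-boxes, 145 and 48 bases before the start, and the other 34 bases before it.
Ldha: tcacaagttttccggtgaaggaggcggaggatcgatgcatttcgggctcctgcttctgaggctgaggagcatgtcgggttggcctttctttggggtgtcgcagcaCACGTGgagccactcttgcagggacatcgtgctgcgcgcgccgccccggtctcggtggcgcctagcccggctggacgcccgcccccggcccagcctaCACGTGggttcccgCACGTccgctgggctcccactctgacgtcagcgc
It held 25 CG dinucleotides, the Khk window 18, the Ldhb window 14 and the liver Pklr window 5.

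Ldhb (ENSMUSG00000030246, chr6:142490249-142507957, minus strand) encodes the B subunit, the main one of heart. It had 3.49, 5.57 and 5.59 CPM in senescent libraries, against 1.11, 0.623 and 0.884 CPM in healthy libraries. These CPM stand for 125 to 193 counts per senescent and 16 to 33 counts per healthy library. Every senescent library lay above every healthy one. The level was 5.54-fold higher in senescent cells (2.47 ± 0.30, edgeR adjusted p = 4.8e-04). The Kupffer cell and macrophage sum was 1.88-fold and the stellate cell sum 2.44-fold higher in senescent than in healthy libraries by their means, though the macrophage ranges overlapped. The cholangiocyte sum was 2.18-fold and the neutrophil and lymphocyte sum 2.43-fold higher. The part of these cells in the Ldhb value was not tested.

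Of 19 other genes of lactate and pyruvate handling 16 were tested. Of these, 1 was higher (background 20.4%), 10 were lower (background 20.7%) and 5 were not called. The largest decreases were in the kinases that switch off pyruvate dehydrogenase. Pdk2 had 28.1, 23.4 and 20.3 CPM in senescent libraries, against 118, 121 and 102 CPM in healthy ones (-2.25 ± 0.15, edgeR adjusted p = 2.0e-05). Pdk1 was at 34.8 ± 7.70 CPM in senescent and 119.5 ± 5.42 CPM in healthy libraries (-1.78 ± 0.17, edgeR adjusted p = 1.1e-04). Pdp1, a phosphatase gene that acts against those kinases, was at 2.14 ± 0.496 CPM in senescent and 0.895 ± 0.214 CPM in healthy libraries (1.26 ± 0.30, edgeR adjusted p = 0.011). The more abundant phosphatase gene Pdp2, named after its values were seen, went the other way, at 12.2 ± 2.55 CPM in senescent and 38.0 ± 5.81 CPM in healthy libraries (-1.64 ± 0.18, edgeR adjusted p = 2.8e-04).

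Ratios of paired isoforms, taken within a library, do not depend on the scaling between libraries. The numerator is the isoform known from wider or other tissues and the denominator the main liver isoform, both as counts per kb of exon. Of 6 pairs tested, 4 are described here, and in these 4 every senescent library had a higher ratio than every healthy library. The smallest p that 3 against 3 libraries can give is 0.1, and each of the 4 reached it (exact permutation test, two-sided, also 0.1 after adjustment over the 6 pairs), so that none can pass 0.05. Pairs were chosen with earlier results of these data known.

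The ratio of Slc2a1 to Slc2a2 was 0.248, 0.173 and 0.2795 in senescent, against 0.0879, 0.0564 and 0.0544 in healthy libraries, a difference in mean log2 ratio of 1.82. For Ldhb over Ldha it was 0.0104, 0.0168 and 0.0228 in senescent, against 0.00443, 0.00189 and 0.00243 in healthy libraries, a difference of 2.54. Ldha stayed far more abundant per kb in every library.

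For Pkm over Pklr the ratio was 0.153, 0.0602 and 0.209 in senescent, against 0.0140, 0.0102 and 0.00706 in healthy libraries, which is the largest difference of the 4 (3.64). Pfkfb3 over Pfkfb1 gave 0.335, 0.552 and 1.19 in senescent, against 0.0305, 0.127 and 0.0807 in healthy libraries (difference 3.15). In that pair alone did the numerator exceed the denominator, and in 1 senescent library.

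**Figure D2:**
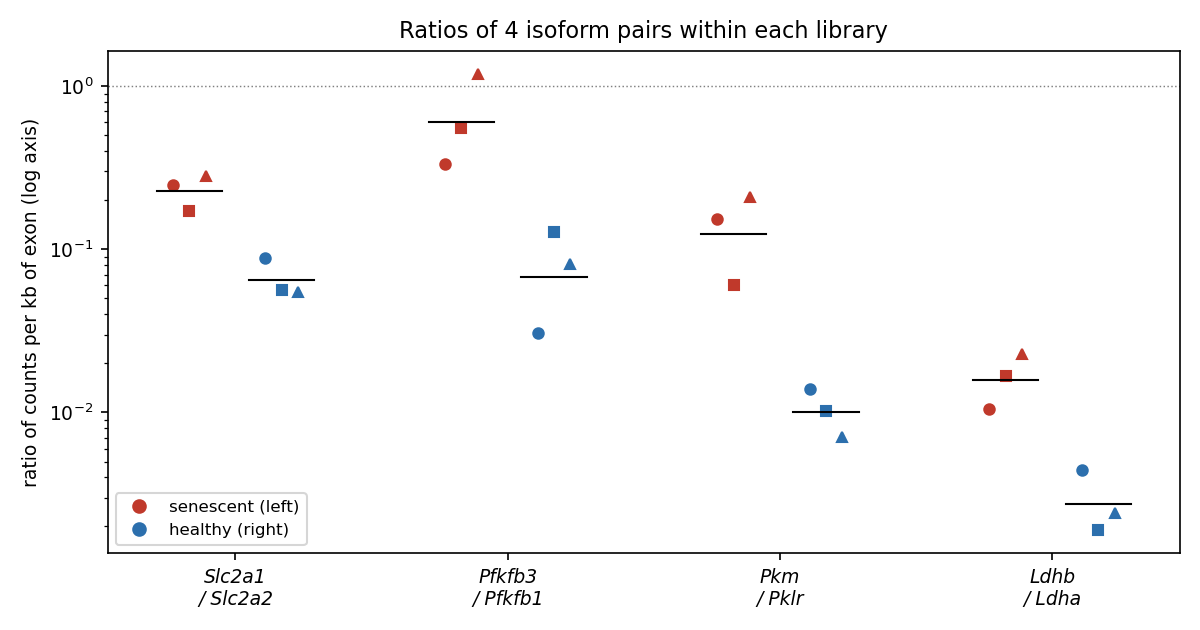
Ratio of counts per kb of exon for 4 isoform pairs (log vertical axis) in senescent (red, left in each pair) and healthy (blue, right) libraries, with circle, square and triangle for replicates 1, 2 and 3 and a line at the geometric mean (n = 3). Every senescent ratio is above every healthy ratio of its pair, and the dotted line at 1 is passed by a single senescent library, for Pfkfb3 over Pfkfb1.

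The order of the 8 genes per kb of exon changed with the group. In senescent libraries the scaled CPM per kb averaged 193 ± 32.4 for Ldha, 75.5 ± 15.8 for Khk, 27.7 ± 3.30 for Slc2a2, 18.0 ± 5.56 for Pklr, 6.34 ± 0.850 for Slc2a1, 3.52 ± 1.161 for Pfkfb1, 3.11 ± 0.768 for Ldhb and 0.212 ± 0.0281 for Hk1. In healthy libraries it averaged 285 ± 38.5 for Khk, 200.4 ± 37.0 for Ldha, 112 ± 12.8 for Pklr, 42.5 ± 5.82 for Slc2a2, 6.17 ± 1.49 for Pfkfb1, 2.75 ± 0.390 for Slc2a1, 0.556 ± 0.156 for Ldhb and 0.132 ± 0.0317 for Hk1 (SD, n = 3 each). Neighbours in each order did not overlap between libraries, except Pfkfb1 and Ldhb in senescent cells. Exonic length is that of all annotated exons together, which understates the level of genes with many rare exons, such as Hk1.

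Over the whole list, 73 other genes of glucose and fructose use were set beside the 8, and 61 were tested. Of these, 9 were called higher (background 20.4%) and 26 lower (background 20.7%), and 26 were not called. Their median log2 fold change was -0.31, against 0.01 over all tested genes. With total library size, 20 were higher and 15 lower, with a median of 0.00 against 0.33 over all genes, while 37.5% of all genes were higher and 9.92% lower. The list's median lay 0.32 below that of all genes with TMM scaling and with total library size. Without senescent replicate 3, 5 of the list were higher and 17 lower, against 14.0% and 11.4% of all genes.

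**Figure D3:**
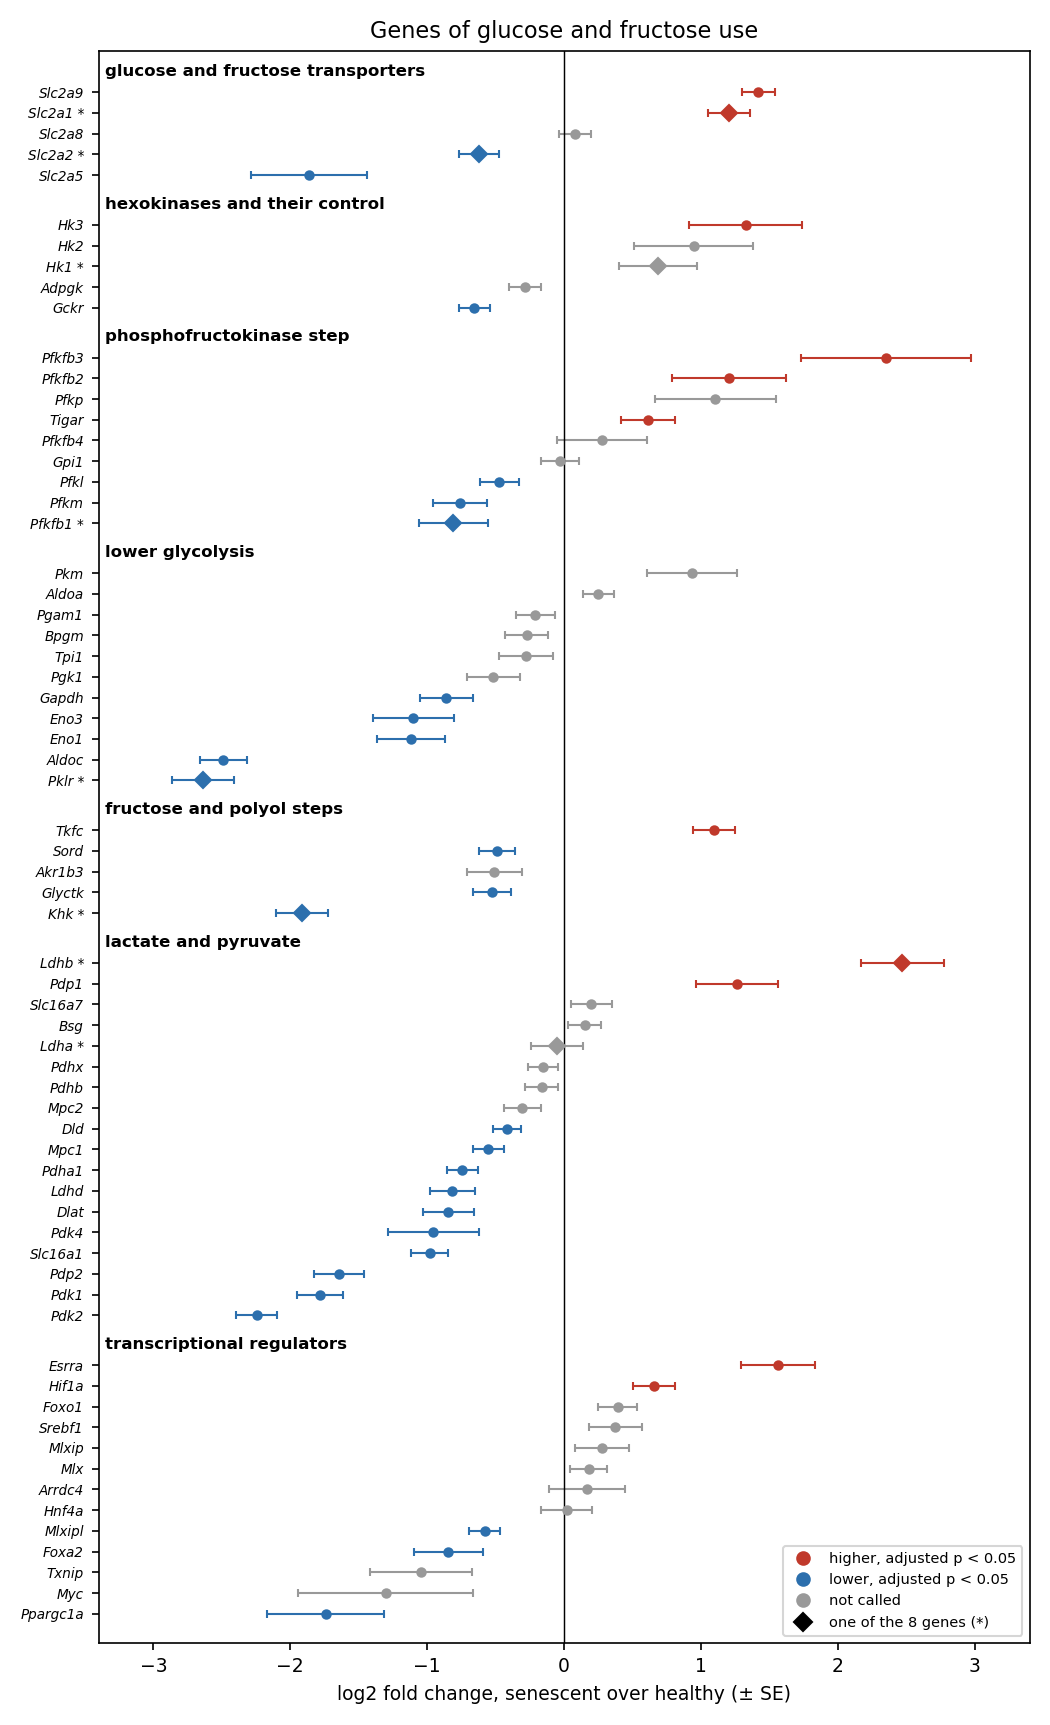
Log2 fold change, senescent over healthy, with SE bars for tested genes of the list, grouped by step, with diamonds for the 8 genes and red, blue and grey for higher, lower and not called (edgeR, adjusted p under 0.05). Pklr at -2.64 and Ldhb at 2.47 are the extremes among the diamonds. The lactate and pyruvate group holds 10 lower genes (background 20.7%) beside the 2 dehydrogenase subunits.

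Genes of transcriptional control were measured as well, a list of transcription factors, the coactivator Ppargc1a and the arrestin-family genes Txnip and Arrdc4. Of these 14 genes, 2 were higher (background 20.4%), 4 were lower (background 20.7%) and 8 were not called. Mlxipl, which encodes ChREBP, the glucose-responsive factor of Pklr, had 247, 224 and 229 CPM in senescent libraries, against 328, 366 and 354 CPM in healthy ones (-0.58 ± 0.12, edgeR adjusted p = 0.0049). With total library size it was not called (0.092).

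Hif1a, the oxygen-regulated factor known to act on Slc2a1 and Ldha, was at 46.3 ± 4.38 CPM in senescent and 29.3 ± 5.47 CPM in healthy libraries (0.66 ± 0.15, edgeR adjusted p = 0.0098). That call was lost with a trend on exonic length removed (0.42, adjusted p = 0.053). Esrra, a nuclear receptor of oxidative metabolism, was at 70.5 ± 2.08 CPM in senescent and 23.9 ± 10.5 CPM in healthy libraries (1.56 ± 0.27, edgeR adjusted p = 0.0026). Protein activity was not measured.

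Some genes had profiles close to those of the members over the 6 libraries, by the root mean square distance of centred log2 CPM among 7602 candidates. Closest to Pklr were Sds (0.163) and Arhgef37 (0.196), and closest to Khk were Hpd (0.0975) and Ahcy (0.1199). Slc2a2 had Prr16 (0.0556) and Gemin2 (0.0577) nearest to it, and Pfkfb1 had Sult1d1 (0.138) and Tbccd1 (0.146). For Slc2a1 they were Myo10 (0.0909) and Slc31a2 (0.0939), and for Ldhb Exoc2 (0.113) and Tgfbr2 (0.132). Hk1 lay nearest to Mob3b (0.0405) and Sh3yl1 (0.0542), and Ldha to Serpina10 (0.0692). The difference between the groups enters this distance together with the spread within them. The 0.5 added to CPM shrinks the differences of low genes, so the small distances of Hk1 need not mean closer matches. Mob3b had a log2 fold change of 0.49 against 0.69 for Hk1, and Exoc2 2.12 against 2.47 for Ldhb.

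**Figure D4:**
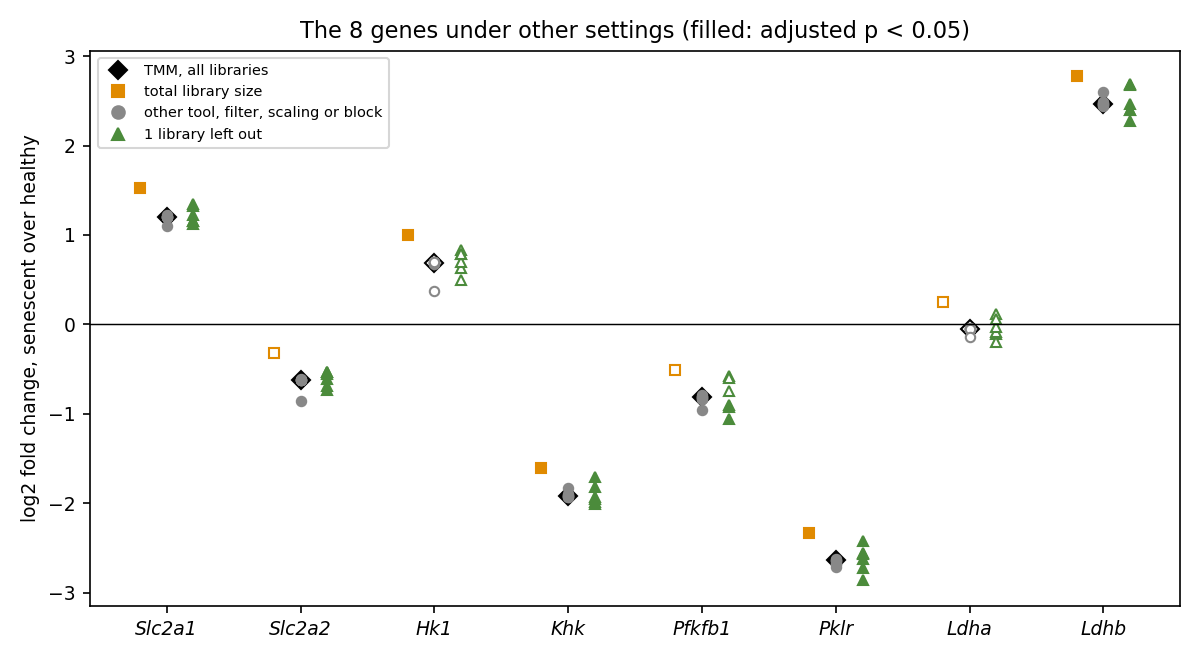
Log2 fold change, senescent over healthy (vertical axis), of the 8 genes with TMM scaling and all libraries (black diamonds), total library size (orange squares), another tool, filter, scaling or block (grey circles) or 1 library left out (green triangles), filled where edgeR, DESeq2 or limma-voom gave an adjusted p under 0.05. Slc2a1, Khk, Pklr and Ldhb keep filled points throughout, Slc2a2 and Pfkfb1 have open points with total library size, and Ldha lies on both sides of 0.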

How the data were processed

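The deposited table holds raw counts per gene for 6 libraries, whole numbers that the authors did not normalise. The submitters' processing notes name STAR 2.7.1a and featureCounts, beside cutadapt 1.16, DESeq2 1.34.0, FastQC and MultiQC 1.3, and the build GRCm38. Annotation release and strand setting were not given in the labels. Healthy replicate 2 was matched to a column whose name differs from its label by a single letter.

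Symbols were found for 99.7% of 32061 IDs. Positions and exonic lengths are from GENCODE M21 (GRCm38), and promoters from RefSeq. The test was edgeR 4.0.16 (quasi-likelihood F test, two-sided, R 4.3.3) with filterByExpr (minimum count 10, minimum total 15), TMM scaling and no covariate, on all 6 libraries. Adjustment was Benjamini-Hochberg over 12949 genes, with calls under 0.05. Ratios of isoforms were compared by an exact permutation test. The genes, lists and pairs were chosen with earlier results of these data known. Named genes are the 8, their pair partners, Mdm2, Cdkn1a, up to 2 called higher and 2 called lower genes with the smallest p in each step, and the 2 nearest profiles of each member, some of which are not reported here (log2 of CPM plus 0.5, genes of at least 10 CPM in a group).

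Alternatives were each library left out, a block on replicate number, an adjusted p under 0.01, removal of a trend on exonic length, a filter at a mean of 1 CPM or none, scaling by total library size or by DESeq2's size factors, limma-voom 3.58.1 and DESeq2 1.42.0. By counting error alone, a gene with no read could still stand at 3 counts. No replicate was a copy of another, since chi-square statistics of pairs within a group were 46.4 to 124 times their degrees of freedom.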

Additional observations from a re-analysis of the deposited data

How the results depend on the processing

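Each gene was refitted under 15 other settings. Among the 8 genes, Slc2a1, Khk, Pklr and Ldhb kept their direction and call in all 15. Slc2a2 lost its call in 3 and Pfkfb1 in 5, Hk1 gained a call in 1, and the cause was not tested. Total library size gave 4861 genes higher and 1285 lower, 2 of the 8 lower, and 20 higher and 15 lower in the pathway list. An adjusted p under 0.01 gave 1570 higher and 1498 lower, 2 of the 8 lower, and 4 higher and 17 lower in the list. That follows from the stricter threshold. With single libraries left out, 1489 to 2789 genes were lower, 2 to 4 of the 8 were lower, and 5 to 10 list genes were higher and 17 to 29 lower, with the lowest of each without senescent replicate 3. Leaving out healthy replicate 2, whose column name differs from its label, gave 2 of the 8 higher and 4 lower.

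The log2 fold change of Ldha was 0.25 by total library size, and between -0.20 and 0.12 when a library was left out, and it was not called in any setting. Its nearest profile Serpina10, not called in any setting either, was at 0.25 with total library size and between -0.23 and 0.094 without single libraries.

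Deviations of same-numbered replicates had correlations of 0.23, -0.17 and -0.04, and those of differently numbered ones ran from -0.33 to 0.38. With so few libraries, this cannot settle whether the numbers pair the samples. With the replicate number as a block 2576 genes were higher and 2625 lower, and 2 of the 8 were higher and 4 lower. The edgeR adjusted p of Pfkfb3 was 2.1e-04 with that block, against 0.017 without it. The lowest counts behind the 8 genes were 23 to 38 for Hk1 and 16 to 33 for Ldhb per healthy library.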
